A study of Mus musculus with 4 samples.

Results

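The nuclear-encoded genes of the respiratory chain and ATP synthase were compared between male and female mouse liver. They were chosen by symbol alone: Nduf followed by a, b, c, s or v and a digit, Sdha to Sdhd, and every symbol beginning with Uqcr, Cox4 to Cox8 or Atp5, with the Ndufaf assembly factors left out. This rule took 84 of the 21827 gene entries, namely 36 Nduf genes assigned to complex I, 4 Sdh genes to complex II, 8 Uqcr genes to complex III, 19 Cox genes to complex IV and 17 Atp5 genes to complex V. The mice were untreated males and females of the outbred CD-1 stock, 8 weeks old. Each sex was represented by 12 livers in 2 pools of 6, and poly-A RNA of these 4 pools was sequenced with the strand kept. The table analysed gives 1 level per sex and no value per pool, so the spread between pools and between mice cannot be given, and every ratio or adjusted p printed for a gene is the authors' value. The study's question is which liver genes have a sex difference in expression.

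The chain sits in the inner mitochondrial membrane. Complexes I and II take electrons from NADH and succinate, complex III passes them from ubiquinol to cytochrome c, and complex IV delivers them to oxygen. Complexes I, III and IV pump protons, and complex V, the ATP synthase, uses the return flow of protons to make ATP. Apart from complex II, which is wholly nuclear-encoded, each complex joins subunits from the mitochondrial genome to many from the nucleus. The hepatocyte is rich in mitochondria, which supply ATP for urea, glucose and lipid metabolism.

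The symbols do not all stand for subunits. Of the 84 genes, 72 encode subunits in general use. A further 8 are paralogs known mainly from other tissues or conditions: the heart and muscle isoforms Cox6a2, Cox7a1 and Cox8b, the testis isoforms Cox6b2, Cox7b2 and Cox8c, the lung isoform Cox4i2, and Ndufa4l2, a gene induced by hypoxia. The other 4 encode no catalogued subunit. Cox4nb encodes a member of the ER membrane complex and is named for its neighbour Cox4i1, Cox7a2l encodes a factor of supercomplex assembly, Atp5s encodes coupling factor B, and Atp5sl encodes an assembly factor of complex I. Ndufa4 is kept with complex I by its symbol, although its protein is now assigned to complex IV.

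The tissue label was checked with marker genes. All 7 hepatocyte markers were compared and lay between 7.59 and 14.825 log2 RPKM (reads scaled for transcript length and library size) in male liver and between 7.645 and 15.52 in female liver, Alb being the highest in both. Xist, the RNA of the inactive X chromosome, stood at -2.515 in male and 6.865 log2 RPKM in female liver, and the Y-linked helicase gene Ddx3y at 4.91 in male and -6.095 in female liver. All 7 skeletal muscle markers and all 4 heart markers found in the table were at the lowest measurable value in 1 or both sexes, with summed levels of 0.859 and 0.577 RPKM in male and 0.478 and 0.402 RPKM in female liver. Counting the value added at the floor as 1 read puts the depth at 11239935 reads in male and 14717080 reads in female liver. For 74.2% of 4666 floor genes with an annotated transcript length, the length implied at the male depth was within 2% of it.

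Common subunits were abundant in the liver of both sexes. The median level of the 72 genes was 6.28 log2 RPKM in male and 6.18 in female liver, against medians of 2.42 and 2.40 over the 13763 compared genes, those with an authors' ratio between the sexes. Taking the higher sex of each gene, 57 of the 72 lay above the 90th percentile of the compared genes. All 84 genes together made up 1.56% of the RPKM summed over all genes in male and 1.51% in female liver. Complex I held the largest part of that sum, with 2512 RPKM in male and 2438 RPKM in female liver, followed by complex V with 2147 and 2068, complex IV with 1227 and 1215, complex III with 938 and 880, and complex II with 598 and 577.

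The ratio of the summed RPKM, male over female, was 1.03 for complex I, 1.04 for complex II, 1.07 for complex III, 1.01 for complex IV and 1.04 for complex V. These sums are a description of 1 value per sex and carry no error. They use the levels before the authors' normalization of the ratios. Over the 79 of these genes that were compared, the median log2 difference of the levels was 0.06, and the median of the authors' normalized log2 ratios was 0.001. Fewer cells of a type and less RNA per cell cannot be told apart in whole liver.

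**Figure D1:**
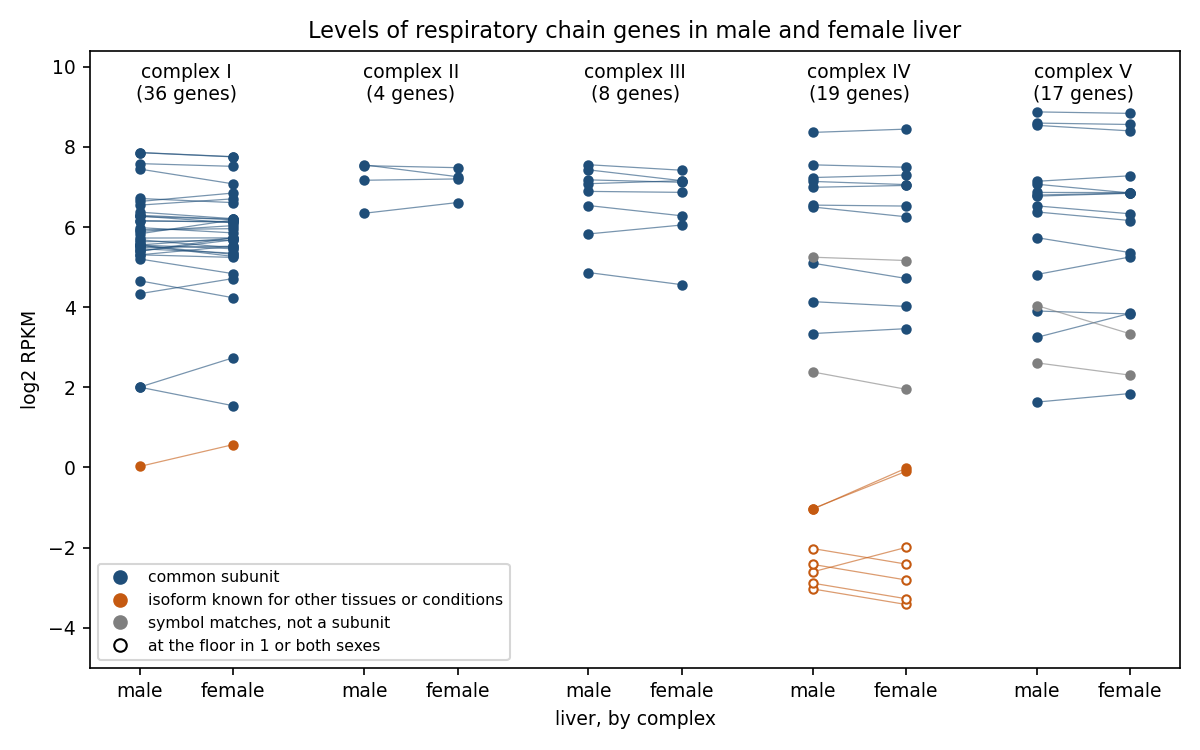
Level of each of the 84 genes (log2 RPKM, vertical axis) in male and female liver, by complex; each line joins the values of 1 gene. Lines run close to level for the common subunits, and the isoforms known for other tissues or conditions lie below 1 log2 RPKM in both sexes.

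Levels differed between subunits of a complex. Across the common subunits of complex I the highest RPKM was 58.0 times the lowest in male and 74.3 times in female liver. For complex V the same span was 151-fold in male and 127-fold in female liver, for complex IV 32.4-fold and 31.6-fold, for complex III 6.46-fold and 7.24-fold, and for complex II 2.31-fold and 1.83-fold. RPKM is a level per transcript length. The lowest genes of complexes III, IV and V share sequence with other genes, and without the genes that share at least 25% of their 36-base transcript windows the span was 3.31-fold in male and 2.58-fold in female liver for complex III, 9.59-fold and 13.2-fold for complex IV and 8.81-fold and 11.1-fold for complex V. The spans of complexes I and II were as before. In complex I the lowest gene kept was Ndufa11, at 4.01 RPKM in male and 2.91 RPKM in female liver (24 and 22 implied reads). Its shared windows were counted on a transcript matched by symbol alone. The next lowest gene kept was Ndufs7, at 36.8 RPKM in male and 28.6 RPKM in female liver. The order of the genes was nearly the same in both sexes: over the 72 common subunits Pearson's r between male and female log2 levels was 0.988 and Spearman's rho 0.988, a description across genes that share the same libraries.

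Few of these genes differed between the sexes. At an adjusted p under 0.05 in the authors' deposited table, 3 of the 79 compared genes differed (3.80%), against 17.4% of all 13763 compared genes. The genes higher in male liver numbered 2, Ndufv3 and Atp5sl, and the background for that direction was 7.21%. Atp5h alone was higher in female liver, where the background was 10.2%. Among genes that reached a log2 RPKM of 4 in 1 or both sexes, the calls were the same 3 of 68 (4.41%), against 17.9% of 3595 compared genes. The authors' own class of sex-biased genes takes an adjusted p under 0.01, stricter than the 0.05 used here for calls. At that threshold in the authors' deposited table none of the 79 was called, against 10.2% of all compared genes (4.16% male-higher and 6.05% female-higher). The threshold of 0.1 in the authors' deposited table called 9 of the 79, 4 male-higher and 5 female-higher, against 23.3% of all compared genes (9.9% and 13.4%).

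The median log2 ratio, male over female, was 0.001 over the 79 genes and -0.02 over all compared genes. Of the 79, 40 ratios were above 0 and 39 below. The ratio was within 0.25 of 0 on the log2 scale for 55 of them (69.6%), against 47.8% of all compared genes and 66.2% of those at a log2 RPKM of at least 4. By complex, the medians were -0.01 for complex I, -0.03 for complex II, 0.08 for complex III, 0.00 for complex IV and 0.03 for complex V.

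The precision of the table limits what these counts can show. The smallest difference called for any compared gene was 0.37 on the log2 scale, a fold of 1.29, and 66 of the 79 genes had a smaller ratio. A difference below that size was not detectable with these pools, and its absence is not shown. The median gene of the 79 had 618 implied reads in male and 850 in female liver, and the 95% exact (Clopper-Pearson) intervals of the read ratios had a median width of 0.30 on the log2 scale. They cover counting error alone and use the implied depths, not the authors' normalization, so an authors' ratio can differ from their centre. An interval clear of 0 does not set called genes apart. Those of the uncalled Sdha (0.25 to 0.35) and Sdhc (-0.34 to -0.20) also left out 0. Fewer than 100 implied reads in 1 or both sexes stood behind 9 of the genes.

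**Figure D2:**
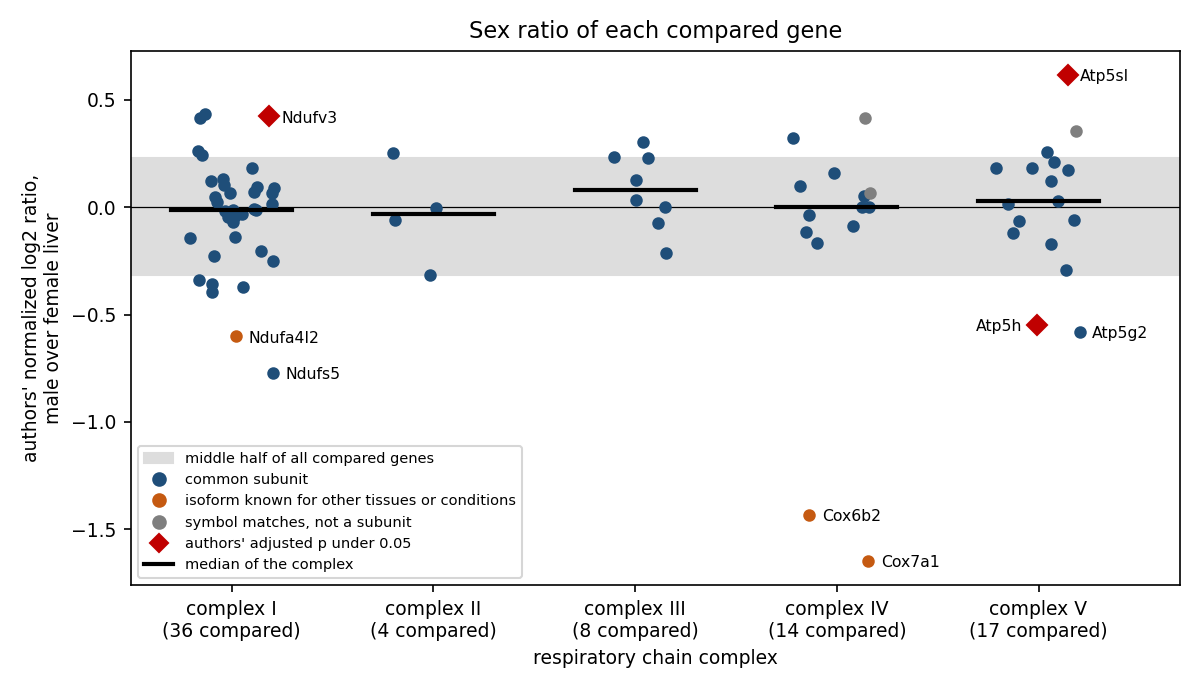
Authors' normalized log2 ratio, male over female liver (vertical axis), of the 79 compared genes by complex; bars are medians and the grey band runs from the lower to the upper quartile of all compared genes. The red diamonds are Ndufv3 and Atp5sl above 0 and Atp5h below; Cox7a1 and Cox6b2, at the bottom, rest on under 10 implied reads in either sex.

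**Figure D3:**
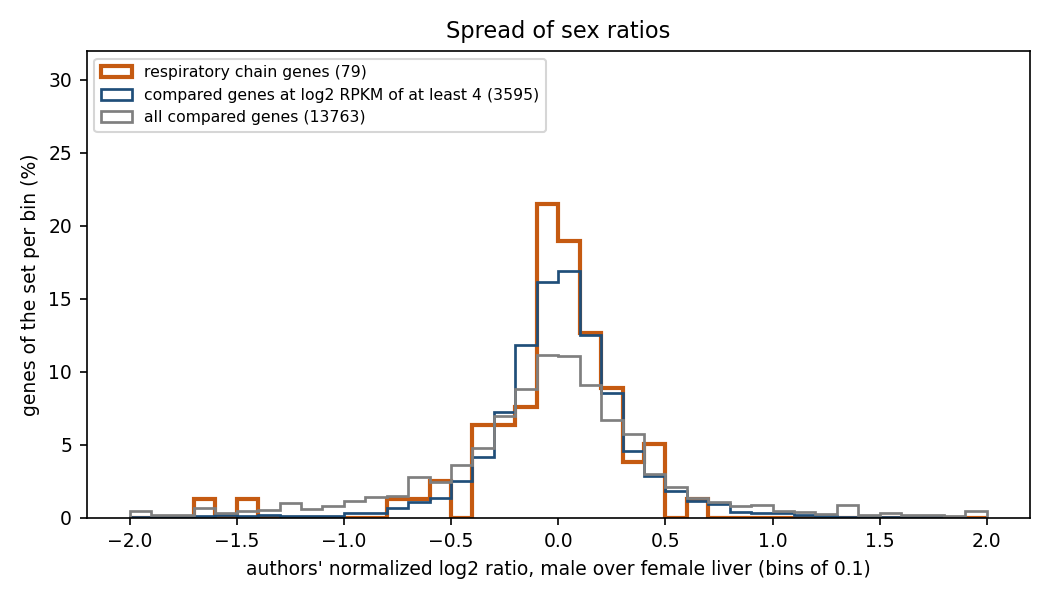
Distribution of the normalized log2 ratio, male over female liver (horizontal axis, bins of 0.1), as the percentage of genes of each set per bin, drawn between -2 and 2; ratios of other genes beyond these limits are not drawn. The 79 respiratory chain genes lie between -1.65 and 0.62, and 55 of them within 0.25 of 0.

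The catalytic core of complex I showed no called difference. The 7 nuclear core subunits hold the flavin and the iron-sulfur clusters that carry electrons from NADH to ubiquinone, and none passed an adjusted p of 0.05 in the authors' deposited table. Ndufv1, which binds the flavin where NADH is oxidized, stood at 6.15 in male and 6.14 log2 RPKM in female liver, with a log2 ratio of -0.01 in the authors' deposited table. Ndufv2 stood at 5.93 in male and 5.96 log2 RPKM in female liver, and Ndufs1, the largest core subunit, at 5.68 and 5.48. The iron-sulfur subunit Ndufs8 stood at 5.40 in male and 5.735 log2 RPKM in female liver, the core ratio farthest from 0 (log2 ratio -0.37, adjusted p = 0.0717 in the authors' deposited table). Ndufs7, which lies near the quinone site, stood at 5.20 in male and 4.84 log2 RPKM in female liver (log2 ratio 0.26, adjusted p = 0.291 in the authors' deposited table). The core subunit Ndufs3 stood at 4.34 in male and 4.72 log2 RPKM in female liver (log2 ratio -0.36, adjusted p = 0.133 in the authors' deposited table).

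Among the 28 accessory Nduf genes of general use, Ndufv3 was higher in male liver. Ndufv3 (chromosome 17, 31657060 to 31668270, mm9) encodes an accessory subunit bound near the flavoprotein. Its level was 7.45 log2 RPKM in male and 7.08 in female liver. The ratio was 1.34-fold in favour of male liver (log2 ratio 0.42, adjusted p = 0.0316 in the authors' deposited table), and 965 male and 979 female implied reads give a counting interval of 0.24 to 0.50 on the log2 scale. No 36-base window of its transcript was found in another gene.

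Other accessory subunits with ratios as large did not pass. Ndufb4 stood at 4.66 in male and 4.235 log2 RPKM in female liver (log2 ratio 0.43, adjusted p = 0.0917), and Ndufa11 at 2.00 in male and 1.54 in female liver (0.42, adjusted p = 0.147), in the authors' deposited table. On the female side Ndufb7 stood at 5.83 in male and 6.18 log2 RPKM in female liver (log2 ratio -0.39, adjusted p = 0.0613 in the authors' deposited table). Ndufs5, with 23 male and 51 female implied reads, had 2.01 log2 RPKM in male and 2.74 in female liver (log2 ratio -0.77, adjusted p = 0.0941 in the authors' deposited table). Ndufs4, whose loss in mice gives a model of Leigh syndrome, stood at 5.55 in male and 5.27 log2 RPKM in female liver (log2 ratio 0.24, adjusted p = 0.23 in the authors' deposited table). The most abundant accessory genes were Ndufb9, Ndufa4 and Ndufa6, at 7.86, 7.86 and 7.58 log2 RPKM in male and 7.76, 7.75 and 7.515 in female liver. Their log2 ratios were 0.065, 0.10 and -0.01 in the authors' deposited table.

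The other accessory subunits lay in a narrow band of levels. Ndufa10, a large subunit of the matrix side, stood at 6.71 in male and 6.61 log2 RPKM in female liver, and Ndufa9, which lies near the quinone channel, at 6.29 in male and 6.19 in female liver. Ndufa13, known also as the cell death regulator GRIM-19, stood at 5.46 in male and 5.35 log2 RPKM in female liver, and the zinc-binding subunit Ndufs6 at 5.55 in male and 5.46 in female liver. The log2 ratios of these 4 genes were 0.07, 0.09, 0.05 and -0.01 in the authors' deposited table. Ratios below -0.2 without a call were found for the membrane-arm subunits Ndufb2 (5.40 in male and 5.68 log2 RPKM in female liver; log2 ratio -0.34, adjusted p = 0.127), Ndufc2 (5.31 and 5.52; -0.25, adjusted p = 0.239) and Ndufb10 (6.64 and 6.85; -0.225, adjusted p = 0.262) and for Ndufa3 (5.55 and 5.72; -0.20, adjusted p = 0.392), in the authors' deposited table. Ndufa2, Ndufa5, Ndufa7, Ndufa8, Ndufa12, Ndufb3, Ndufb5, Ndufb6 and Ndufc1 had log2 ratios between -0.14 for Ndufa5 and 0.13 for Ndufb3 in the authors' deposited table.

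Complex II and complex III had no called gene. Sdha, the flavoprotein that oxidizes succinate, stood at 7.55 in male and 7.26 log2 RPKM in female liver (log2 ratio 0.25, adjusted p = 0.177 in the authors' deposited table). Its partner Sdhb, the iron-sulfur subunit, stood at 7.53 in male and 7.48 in female liver. The membrane anchors had lower male than female levels, 6.34 in male and 6.61 log2 RPKM in female liver for Sdhc (log2 ratio -0.31, adjusted p = 0.107 in the authors' deposited table) and 7.17 and 7.20 for Sdhd.

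In complex III the 3 core subunits taken by the symbol rule, which leaves out Cyc1, had log2 ratios between 0.00 and 0.23 in the authors' deposited table. The core proteins Uqcrc1 and Uqcrc2 stood at 6.54 and 6.89 log2 RPKM in male and 6.28 and 6.87 in female liver. Uqcrfs1, the Rieske iron-sulfur protein that takes electrons from ubiquinol, stood at 7.18 in male and 7.12 log2 RPKM in female liver (log2 ratio 0.035 in the authors' deposited table). The 5 small subunits had log2 ratios between -0.21 for Uqcr11 and 0.305 for Uqcrb (adjusted p = 0.353 and 0.22 in the authors' deposited table). Uqcrh, the hinge protein, was the most abundant, at 7.56 in male and 7.42 log2 RPKM in female liver. Uqcr10 stood at 7.43 in male and 7.16 log2 RPKM in female liver (log2 ratio 0.23, adjusted p = 0.26 in the authors' deposited table), and Uqcrq at 7.08 in male and 7.16 in female liver.

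Of the 19 complex IV entries, 14 were compared and none was called. The 10 common subunits had log2 ratios between -0.165 for Cox7c and 0.325 for Cox8a (adjusted p = 0.682 and 0.198 in the authors' deposited table). Cox4i1, the largest nuclear subunit and the site of ATP inhibition of the enzyme, had the highest level, 8.36 in male and 8.44 log2 RPKM in female liver. Cox6b1 stood at 7.55 and 7.49, Cox6a1 at 7.24 and 7.30, Cox6c at 7.14 and 7.06 and Cox5a at 6.99 and 7.04 log2 RPKM in male and female liver. Cox7a2, the liver isoform of its family, stood at 6.55 in male and 6.52 log2 RPKM in female liver. Cox5b and Cox7c were lower, at 4.14 and 3.34 log2 RPKM in male and 4.02 and 3.46 in female liver. Cox4nb, which is no subunit, stood at 2.385 in male and 1.95 log2 RPKM in female liver (log2 ratio 0.42, adjusted p = 0.0664 in the authors' deposited table). Cox7a2l had a log2 ratio of 0.07 in the authors' deposited table.

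Of the 8 paralogs known mainly from other tissues or conditions, 4 were not detected in liver of either sex. Cox4i2, Cox6a2, Cox8b and Cox8c lay at the floor in both sexes. Their common partners were far higher. With 3 reads per sex assumed as an upper limit for a gene at the floor, Cox4i1 was at least 896-fold above Cox4i2 in male and at least 1242-fold in female liver. Cox6a1 was at least 371-fold and at least 507-fold above Cox6a2. Cox8a was at least 46.4-fold above Cox8b in male and at least 46.7-fold in female liver, and at least 61.1-fold and 61.4-fold above Cox8c. These genes carry an adjusted p of 0.026 with a ratio of 1 in the authors' deposited table, as does every gene at the floor, and are not counted as called.

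A few reads were implied for the other paralogs. Cox7a1 had 1 male and 4 female implied reads, Cox6b2 had 2 and 7, and Cox7b2 had none in male and 1 in female liver. The log2 ratios of Cox7a1 and Cox6b2, -1.65 and -1.43 (adjusted p = 0.38 and 0.46 in the authors' deposited table), are the largest of the 79 in size, and their counting intervals run from -7.23 to 1.73 and from -4.72 to 0.97. Ndufa4l2 had 10 male and 19 female implied reads and stood at 0.03 in male and 0.57 log2 RPKM in female liver (log2 ratio -0.60, adjusted p = 0.592 in the authors' deposited table), while Ndufa4 was 228-fold higher in male and 145-fold higher in female liver. Low levels in whole liver do not tell whether reads came from hepatocytes or from few other cells.

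**Figure D4:**
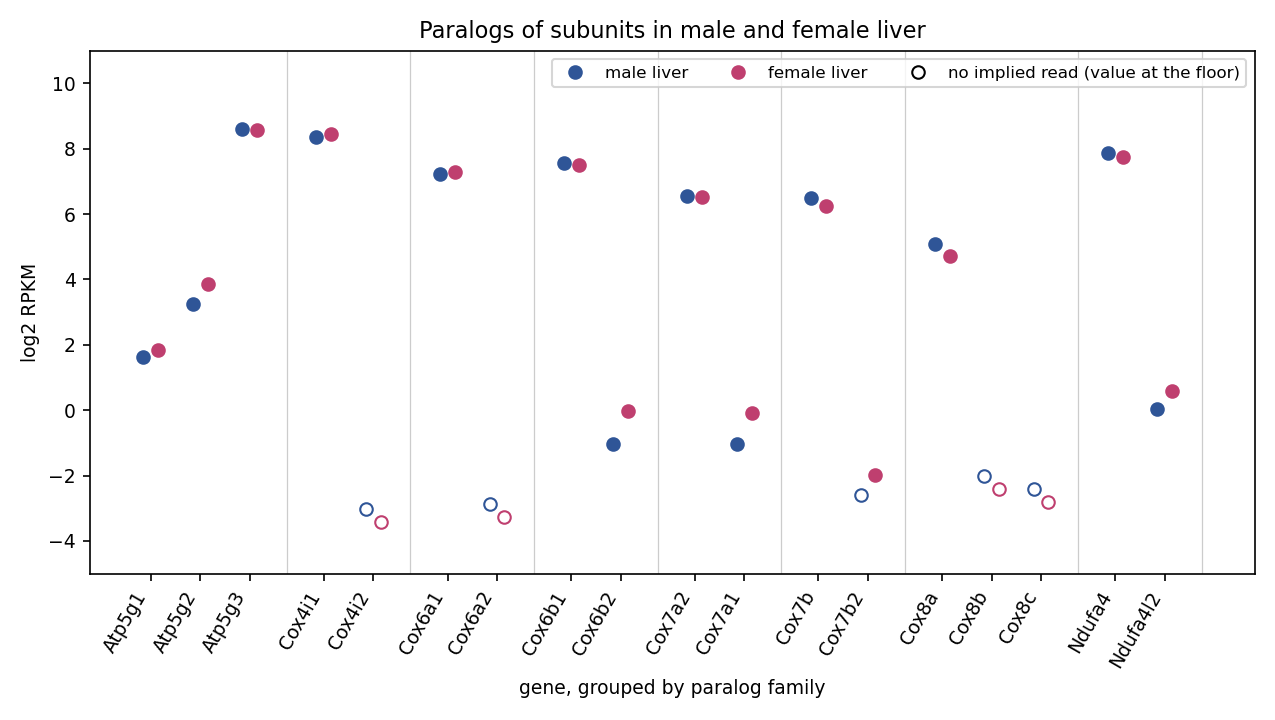
Levels (log2 RPKM, vertical axis) of paralogous subunits, male liver left of female liver for each gene, grouped by family; open circles have no implied read. In each Cox family the common isoform lies above 4.7 and the other isoforms below 0, and Atp5g3 lies above Atp5g1 and Atp5g2 in both sexes.

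In complex V none of the 5 genes of the catalytic head and central stalk was called. The catalytic head of the ATP synthase is built from the alpha and beta subunits, and their genes Atp5a1 and Atp5b stood at 8.54 and 8.87 log2 RPKM in male and 8.40 and 8.84 in female liver. Atp5b had the highest level of all 84 genes in both sexes (log2 ratio 0.03, adjusted p = 0.881 in the authors' deposited table). The gamma, delta and epsilon subunits of the central stalk, Atp5c1, Atp5d and Atp5e, had log2 ratios of 0.175, -0.06 and -0.12 in the authors' deposited table.

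The c subunit of the membrane ring is encoded by 3 genes, which share the mature protein and differ in their import sequences. Atp5g3 supplied 96.8% of their summed RPKM in male and 95.5% in female liver, at 8.595 in male and 8.56 log2 RPKM in female liver. Atp5g2 supplied 2.38% in male and 3.64% in female liver (3.25 and 3.85 log2 RPKM; log2 ratio -0.58, adjusted p = 0.0595 in the authors' deposited table), and Atp5g1 supplied 0.776% and 0.909%. Of 36-base windows of the Atp5g2 and Atp5g1 transcripts, 87.6% and 67.0% also occur in other genes, against none for Atp5g3, so reads of these genes can be lost or moved between copies by the counting.

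The peripheral stalk, which holds the catalytic head still, contains the only gene called higher in female liver. Atp5h (chromosome 11, 115277011 to 115281233, mm9) encodes subunit d. Its level was 4.82 log2 RPKM in male and 5.255 in female liver, a 1.46-fold difference (log2 ratio -0.55, adjusted p = 0.0139 in the authors' deposited table). The plain difference of the levels was -0.44, and 197 male and 350 female implied reads give a counting interval of -0.70 to -0.18. Of its 36-base windows, 58.0% occur in transcripts of 6 other genes, and their part in the ratio was not tested. The other stalk genes were not called: Atp5f1 (subunit b) had a log2 ratio of -0.17, Atp5j (coupling factor 6) of -0.06 and Atp5o (the oligomycin sensitivity protein) of 0.21 in the authors' deposited table.

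The small membrane subunits Atp5j2, Atp5k and Atp5l all had ratios above 0 that did not pass, 0.18, 0.26 and 0.18 on the log2 scale (adjusted p = 0.376, 0.391 and 0.349 in the authors' deposited table). The second male-higher gene, Atp5sl (chromosome 7, 26405914 to 26410570, mm9), is not a subunit of complex V. It stood at 4.04 in male and 3.335 log2 RPKM in female liver, a 1.53-fold difference (log2 ratio 0.62, adjusted p = 0.0112 in the authors' deposited table), with a counting interval of 0.50 to 0.92 and no window shared with another gene. The interval and the windows rest on a transcript matched by symbol alone. That transcript spans 6056 bases, against 4657 for the Atp5sl entry. Atp5s stood at 2.61 in male and 2.30 log2 RPKM in female liver (log2 ratio 0.36, adjusted p = 0.157 in the authors' deposited table).

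Part of the transcript of many subunit genes also occurs in transcripts of other genes, and levels were lower where more was shared. For each gene, the windows of 36 bases of its GENCODE vM21 transcript that also occur in the transcript of another gene were counted. Of the 72 common subunits, 14 shared at least 25% of windows, and their median level was 4.50 log2 RPKM in male and 4.40 in female liver. The other 58 had medians of 6.51 in male and 6.31 in female liver. Across the 72 genes Pearson's r between the shared share and the mean log2 level was -0.64 and Spearman's rho -0.46, a description over genes of the same libraries. The read length and the treatment of reads with several matches are not given in the sources used here, so the part of shared sequence in the low levels of Atp5g1, Atp5g2, Atp5l, Ndufs5, Cox7c and Cox5b was not tested. Ndufa11, at 2.00 in male and 1.54 log2 RPKM in female liver, was as low with 15.9% of its windows shared. That share rests on a transcript matched by symbol alone, which spans 4371 bases, against 6487 for the Ndufa11 entry. Shared sequence also moved with the size of the sex ratio (r = 0.44 and rho = 0.26 with the absolute log2 ratio over the same 72 genes). Levels were lower where more was shared, and the part of counting error in this relation was not tested.

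**Figure D5:**
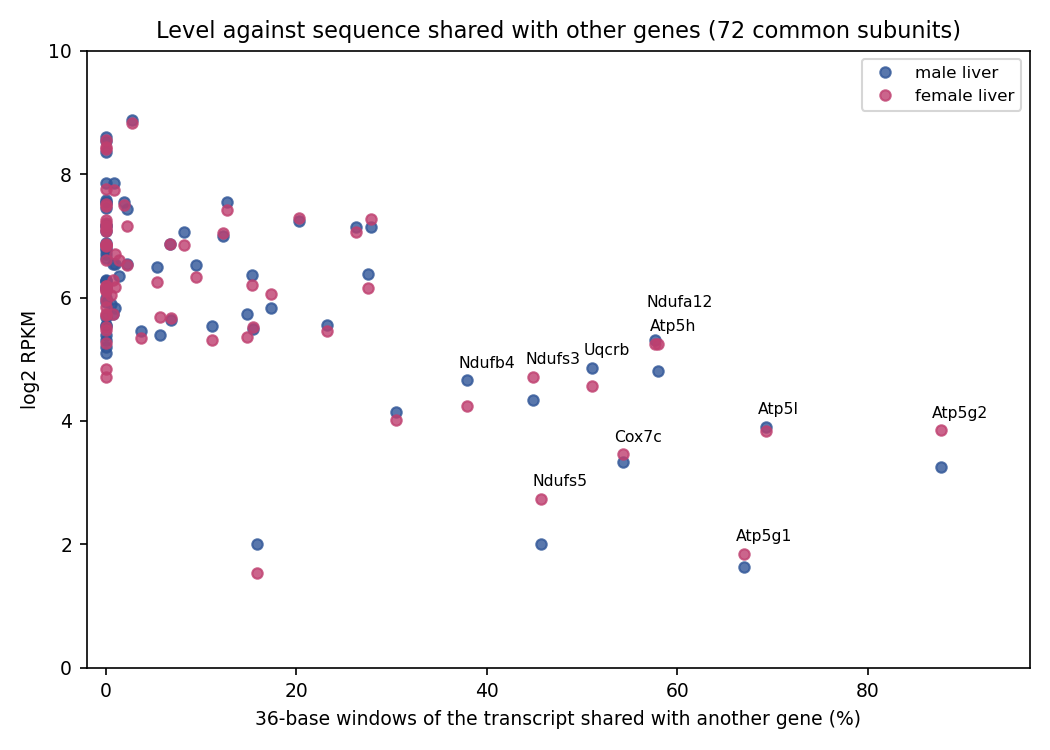
Level (log2 RPKM, vertical axis) of the 72 common subunits in male and female liver against the percentage of 36-base windows of the transcript found in another gene (horizontal axis). Atp5g2, at 87.6%, lies furthest right, and genes without shared windows lie at 4.7 or above in both sexes.

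The genes lie on 19 chromosomes, and 3 are X-linked. The X-linked subunit genes were not called and had small ratios: Ndufa1, an accessory subunit of complex I, stood at 5.73 in both sexes (log2 ratio -0.07), Ndufb11 at 5.49 in male and 5.52 log2 RPKM in female liver (-0.05) and Cox7b at 6.50 in male and 6.26 in female liver (0.16), with adjusted p-values of 0.734, 0.847 and 0.428 in the authors' deposited table. Some genes of different complexes are near neighbours. On chromosome 10, Atp5d, Ndufs7 and Uqcr11 follow each other within gaps of 103634 and 146205 bases (mm9), with log2 ratios of -0.06, 0.26 and -0.21 in the authors' deposited table. Ndufs8 and Ndufv1, both core subunits of complex I, are 94788 bases apart on chromosome 19.

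Nuclear genes of the chain are known targets of the transcription factors NRF1, GABPA (an ETS factor, also called NRF2) and YY1, so their promoter windows were read from RefSeq (GRCm38.p6; 250 bases before to 50 after the start). Of the 84 genes, 68 had a window. Both strands were searched for GCGCA and GCGC with any 1 base between them (NRF1), CCGGAAG (ETS) and AAGATGGC (YY1). A match describes the letters and is no evidence of binding, and a window without one says nothing about the factor. The 61 common subunits with a window held the NRF1 letters in 17 (27.9%), against 12.4% of 7782 compared genes at a log2 RPKM of at least 1 and 5.19% of all 27025 genes with a window. The ETS letters stood in 16 of 61 (26.2%), against 21.5% and 9.93%, and the YY1 letters in 9 of 61 (14.8%), against 5.80% and 3.19%. At least 1 of the 3 stood in 36 of the 61. Common subunits had a median of 19 CG pairs per window, against 21 in the compared genes at that level and 7 in all genes. The median log2 sex ratio was 0.015 for the 17 genes with the NRF1 letters (-0.77 to 0.43) and 0.00 for the 44 without (-0.39 to 0.42). It was -0.05 for the 16 genes with the ETS letters and 0.02 for the 45 without, and 0.09 for the 9 genes with the YY1 letters and 0.00 for the 52 without. For each of the 3 motifs the ranges with and without it overlapped.

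Windows of the called subunits and of a common and a muscle paralog are shown, in the direction of the gene, with matches in capitals (the start of the gene is base 251). The Atp5h window (chr11:115419870-115420169, minus strand) holds 1 NRF1 match at bases 110 to 119 and 1 ETS match at 213 to 219. The Ndufv3 window (chr17:31519865-31520164, plus strand) holds none of the letters searched. The Cox8a window (chr19:7217567-7217866, minus strand) holds ETS matches at 246 to 252 and 283 to 289. The Cox8b window (chr7:140900397-140900696, minus strand), of the gene at the floor, holds none of the 3 and is marked for TATAAA, at bases 255 to 260. These letters stand in 8.20% of the 61 common subunits, in 9.43% of compared genes at a log2 RPKM of at least 1 and in 15.7% of all genes with a window. Of the 4 tissue paralogs with a window, 2 hold them, Cox8b included. The Cox8b window has 2 CG pairs and the Cox8a window 19.
Atp5h: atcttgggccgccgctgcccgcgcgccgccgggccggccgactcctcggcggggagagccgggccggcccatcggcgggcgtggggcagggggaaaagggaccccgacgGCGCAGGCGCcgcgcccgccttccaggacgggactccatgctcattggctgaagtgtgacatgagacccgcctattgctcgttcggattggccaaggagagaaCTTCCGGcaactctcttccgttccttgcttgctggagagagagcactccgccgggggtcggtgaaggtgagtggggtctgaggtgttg
Ndufv3: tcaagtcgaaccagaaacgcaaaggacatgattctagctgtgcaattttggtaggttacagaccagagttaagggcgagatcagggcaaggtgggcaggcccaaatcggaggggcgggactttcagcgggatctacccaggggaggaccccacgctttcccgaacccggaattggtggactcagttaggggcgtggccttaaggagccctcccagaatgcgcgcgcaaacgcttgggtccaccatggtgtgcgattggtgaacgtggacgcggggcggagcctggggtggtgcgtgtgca
Cox8a: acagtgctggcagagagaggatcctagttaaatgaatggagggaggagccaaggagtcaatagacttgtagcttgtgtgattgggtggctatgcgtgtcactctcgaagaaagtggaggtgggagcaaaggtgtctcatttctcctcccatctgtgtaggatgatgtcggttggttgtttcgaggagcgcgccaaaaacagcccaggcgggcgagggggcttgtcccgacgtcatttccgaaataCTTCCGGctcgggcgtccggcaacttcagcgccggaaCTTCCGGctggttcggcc
Cox8b: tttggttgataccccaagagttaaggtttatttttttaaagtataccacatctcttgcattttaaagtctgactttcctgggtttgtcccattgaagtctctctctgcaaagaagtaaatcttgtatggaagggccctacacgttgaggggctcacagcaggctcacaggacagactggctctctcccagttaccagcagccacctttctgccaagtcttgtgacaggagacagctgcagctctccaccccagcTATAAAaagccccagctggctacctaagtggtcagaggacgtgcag

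Related lists had called shares from below to near the 17.4% of all compared genes. The 30 compared assembly factors of complexes I to V included 2 male-higher genes (6.67%, against 7.21% of all compared genes) and no female-higher gene (against 10.2%), and their log2 ratios had a median of -0.035. They were Lrpprc, which stabilizes mitochondrial mRNAs (5.01 in male and 4.645 log2 RPKM in female liver; 1.35-fold, adjusted p = 0.0238), and Bcs1l, the chaperone that inserts the Rieske protein (2.94 and 2.43; 1.42-fold, adjusted p = 0.0486), in the authors' deposited table. Of 12 chain genes that the symbol rule does not take 2 were called (16.7%, near the background). Atpif1, which encodes the inhibitor of ATP synthase, was higher in female liver (3.93 in male and 4.54 log2 RPKM in female liver; 1.54-fold, adjusted p = 0.0221 in the authors' deposited table). Dhodh, which feeds electrons from pyrimidine synthesis into the ubiquinone pool, was higher in male liver (2.115 in male and 1.35 in female liver; 1.60-fold, adjusted p = 0.0284 in the authors' deposited table). Cyc1 and Cycs, which encode cytochrome c1 and cytochrome c, were not called, with log2 ratios of -0.04 and 0.42 in the authors' deposited table. The mitochondrially encoded subunits were not analysed here.

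Of 34 regulators and citrate cycle genes 4 were called (11.8%, against 17.4% of all compared genes). Of 17 regulators of mitochondrial biogenesis, Nrf1 and Pprc1 were female-higher (11.8%, near the background of 10.2%) and none was male-higher (median log2 ratio -0.07). Nrf1 stood at 1.98 in male and 2.62 log2 RPKM in female liver (log2 ratio -0.67, adjusted p = 0.00419 in the authors' deposited table). Pprc1, a relative of the PGC-1 coactivators, stood at 1.36 in male and 1.95 log2 RPKM in female liver (log2 ratio -0.56, adjusted p = 0.0368 in the authors' deposited table). Ppargc1a, Gabpa, Yy1 and Tfam had log2 ratios of -0.14, -0.08, -0.065 and -0.07 in the authors' deposited table and were not called. Of 17 citrate cycle genes, Idh2 was higher in female liver (5.24 in male and 5.87 log2 RPKM in female liver; 1.64-fold, adjusted p = 0.000308) and Ogdh in male liver (6.18 and 5.65; 1.45-fold, adjusted p = 0.00585), in the authors' deposited table. Among 10 uncoupling protein, nucleotide carrier and porin genes, 7 were compared and none was called.

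Of the 7 hepatocyte markers 3 were called (42.9%, against 17.4% of all compared genes). Alb was female-higher (log2 ratio -0.70, adjusted p = 0.000181 in the authors' deposited table). Apoa1 and Serpina1c were male-higher (log2 ratios 0.57 and 0.60, adjusted p = 0.00214 and 0.00126 in the authors' deposited table). Some markers of other liver cells were called, most of them female-higher, a direction in which 10.2% of all compared genes were called. Of 5 Kupffer cell markers 3 were female-higher (Marco, Vsig4 and Clec4f), and the list summed to 132 RPKM in male and 167 RPKM in female liver. Of 4 stellate cell markers 2 were female-higher (Lrat and Dcn), with a sum of 91.1 RPKM in male and 121 RPKM in female liver, while Des had an uncalled log2 ratio of 0.445 in the authors' deposited table. Of 4 endothelial markers Pecam1 alone was female-higher, with a sum of 87.2 RPKM in male and 97.8 RPKM in female liver. Of 4 bile duct markers Sox9 alone was female-higher, with a sum of 2.57 RPKM in male and 3.60 RPKM in female liver, while Krt19 had an uncalled log2 ratio of 1.34 in the authors' deposited table. Of 4 compared red cell markers Alas2 alone was called, at 6.43 in male and 3.75 log2 RPKM in female liver, and the globin genes were not. None of 4 T and B cell markers was called. The part of these cells in the ratios of the respiratory chain genes was not tested.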

How the data were processed

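Per the labels' protocols, livers of 8-week-old CD-1 mice gave total RNA in 4 pools of 6 livers, which was poly-A-enriched and prepared strand-specifically. Bowtie, edgeR and mm9 come from the submitters' processing notes, which as used here hold no version and no role; the counting rules are not given in the sources used here. Per the file headers, the authors deposited log2 RPKM per sex, a normalized log2 ratio (male over female), the linear ratio, a signed fold change (a score, negative where female liver is higher), adjusted p-values and classes. Their class of sex-biased genes takes an adjusted p under 0.01. Counts per pool were not used here, so the planned test on counts was replaced by its fallback: the authors' adjusted p-value under 0.05, with the direction of their ratio.

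Genes with a ratio of 1 and levels 0.389 apart (log2) lie at the floor (6590 genes), 1460 rise above it in a single sex, 14 have no level, and 13763 were compared. Implied reads take the added value as 1 read. Transcript lengths and 36-base windows come from GENCODE vM21, on another build than the table; 70 of the 84 genes matched by accession and 14 by symbol. Promoters come from RefSeq GRCm38.p6. Members and lists were chosen with earlier results of these data known. Named genes were every called member, the highest, lowest and extreme members of each complex, tissue paralogs and symbols that are no subunit. The scripts (Python 3.11.15, scipy 1.17.1) were tested on simulated data. Values of 1 member are not reported here.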

Additional observations from a re-analysis of the deposited data

How the results depend on the processing

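The table separates no pools, so leaving out each pool in turn was not run, and error between mice is unknown. No paired analysis was possible because each sex has a single value and the labels give the pools no shared numbers. At an adjusted p under 0.01, 0 members were called in either direction, hence 0 in complex I and 0 in complex V; at under 0.1 there were 9, namely 4 male-higher and 5 female-higher genes. Without the symbols that encode no subunit, 1 male-higher call was left (Ndufv3) and 1 call in complex V (Atp5h). Leaving out genes that share at least 25% of windows, chosen after seeing the data, removed Atp5h, left 0 female-higher calls and narrowed the span of levels in complexes III, IV and V. Medians over all genes and by complex moved by less than 0.15 (the half-width of the median counting interval) under each filter, centring or plain difference of log2 RPKM, although several medians near 0 changed sign. This limit is larger than each of the medians, so staying within it does not show that they are stable. With the plain difference, Cox6b2 moved to -1.03 and Cox7a1 to -0.93, and 8 uncalled genes with normalized ratios of at most 0.06 in size changed sign. The 3 called genes kept their direction with the plain difference. The centrings only took off medians of -0.024 and -0.004, too small to reverse these 3 ratios.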

Other observations

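Of the 84 genes, 20 (23.8%) have a gene on the opposite strand starting within 1000 bases upstream in a head-to-head arrangement (mm9 coordinates of the table), against 13.1% of all compared genes. Of the 15 neighbours that were compared and are no respiratory chain gene, 3 were called (20%), near the 17.4% of all compared genes. The respiratory chain gene beside each of these 3 was not called. Rnf113a1, whose start lies 7 bases from that of the X-linked Ndufa1, stood at 0.13 in male and 1.33 log2 RPKM in female liver (log2 ratio -1.285, adjusted p = 0.00732 in the authors' deposited table), while Ndufa1 had a log2 ratio of -0.07. Kbtbd4, 65 bases from Ndufs3, had a log2 ratio of -0.52 (adjusted p = 0.0309 in the authors' deposited table), against -0.36 for Ndufs3. Tatdn1, 80 bases from Ndufb9, had a log2 ratio of 0.55 (adjusted p = 0.0216 in the authors' deposited table), against 0.065 for Ndufb9. The called Atp5h lies 207 bases from Kctd2, which was not called (log2 ratio -0.14). Whether the ratios of such a pair differ from each other was not tested.

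At 11 genes the table's interval overlaps an entry on the opposite strand, the longest being the overlap of 14699 bases between Ndufs1 and Gm11602, which stood at 2.96 in male and 2.50 log2 RPKM in female liver. The sources used here do not say if strand entered the counting, so reads of such pairs cannot be told apart from the table alone.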
